A study of Homo sapiens with 15 samples.

Results

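The sites described here are the FOXA1 peaks that were called in parental 22Rv1 cells treated with the stereoprobe WX-02-23 and that overlapped, by 1 bp or more, no peak called in parental cells under any of 4 control conditions (DMSO, the second stereoprobe WX-02-43, PladB or siControl). There were 1520 such sites among the 17217 peaks of the WX-02-23 list, which is 8.83% of it (95% Wilson interval 8.41 to 9.26%). All 12 peak lists of the series together held 249079 peaks. The sites were chosen by the calls in these 5 parental lists, so every value from those lists is given as a description, with no test. The parental list after FOXA1 knockdown and the 6 lists of engineered cells were not used in the choice.

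FOXA1 is a forkhead transcription factor of the pioneer class, which can bind its recognition sequence on nucleosomal DNA and open closed chromatin for other factors. In prostate epithelial and prostate cancer cells it is known for marking the enhancers to which the androgen receptor binds. The series' title speaks of covalent small molecules that redirect this function. WX-02-23 and WX-02-43 are named stereoprobes in the labels. PladB is pladienolide B, a splicing inhibitor that acts on the protein complex containing PHF5A.

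FOXA1 binding was profiled by chromatin immunoprecipitation and sequencing (ChIP-seq) in 22Rv1, an established human prostate carcinoma line, with 1 library for each group and 12 peak lists. Parental cells received DMSO (0.1%), 20 µM WX-02-23, 20 µM WX-02-43 or PladB for 3 h. In 2 further libraries they carried a small interfering RNA, either one directed at FOXA1 (siFOXA1) or a control (siControl). The PladB dose is given as 100 nM in that sample's treatment label and as 10 nM for parental cells in the shared protocol, and no time or dose is given for the small interfering RNAs. Both engineered lines overexpressed Y36C-PHF5A, also in their controls, and carried a doxycycline-inducible FOXA1, wild type (WT) in one line and C258A, in which alanine replaces a cysteine, in the other. Each line gave 3 libraries, an uninduced one with DMSO and 2 induced by doxycycline, of which one had DMSO and the other 20 µM WX-02-23, both for 3 h. The labels do not say whether a line is 1 clone, and they name an antibody against FOXA1 and no tag, so induced and endogenous protein are not separated. With 1 library a group the spread between replicates is not known, and comparisons rest on counts and their intervals, for counting error alone, without p-values. The lists held 3018 (siFOXA1) to 34119 (siControl) peaks, and the read depth behind them is unknown.

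Positions are those of the hg19 build named in the submitters' processing notes, counted from 1. The score of a peak is the authors' own value, defined neither in the files nor in the labels, and it ranks peaks within a list. No DNA sequence of these sites and no gene near them was analysed here.

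Sites called in 1 parental list alone exist for every list, and they set the level against which the 1520 can be read. By the same rule 309 sites were called with WX-02-43 alone (1.70% of its 18228 peaks), 1871 with DMSO alone (6.12%), 2591 with PladB alone (7.82%) and 3335 with siControl alone (9.77%). The WX-02-23 share therefore lay within the range of the other lists, while WX-02-43, with a list of like length, had far fewer. The sets differed in rank within their own list. Of the 1520 sites, 202 (13.3%) stood in the upper 50% of the WX-02-23 list by score, against 6 of 309 for WX-02-43, 3 of 1871 for DMSO, 13 of 2591 for PladB and 30 of 3335 for siControl. Conversely, 47.9% of them stood in the lowest 20% of their list, and the other 4 sets had between 71.5 and 77.9% there. The number depends on the length of the control lists: with each of those reduced to its 17217 highest-scoring peaks it was 3511.

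Most of the 1520 sites were nonetheless weak peaks. Their scores ran from 90.2 to 917 with a median of 119 (quartiles 101 and 157), and the median of the whole list was 197. They made up 23.2% (21.3 to 25.3%) of the lowest 10% of the list, 8.19% of the 10% just below the middle and 0.232% (4 of 1722) of the highest 10%. Their median width was 470 bp, against 706 bp for the 11868 WX-02-23 peaks called in all 4 control lists (the commonly called peaks). The 1147 WX-02-23 peaks that lacked a DMSO peak but were called in another control list lay between these groups, with a median score of 130 and a median width of 519 bp.

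**Figure D1:**
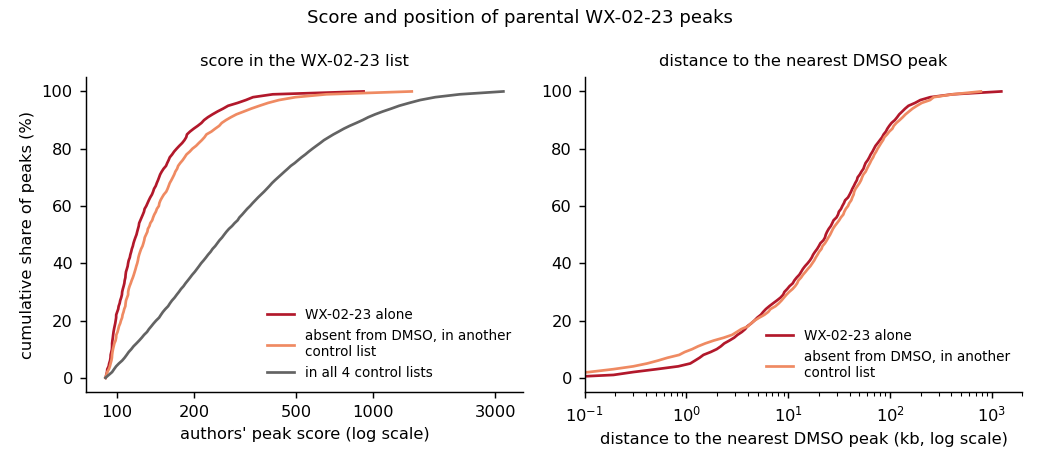
Cumulative share of parental WX-02-23 peaks (%) by the authors' score (left) and, for peaks absent from DMSO, by distance to the nearest DMSO peak (right, kb), both on log axes. The sites called with WX-02-23 alone have the lowest scores (median 119), and their distances follow those of the 1147 peaks shared with another control list.

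The distance from the sites to DMSO peaks varied widely. The median distance to the nearest DMSO peak was 23378 bp (quartiles 6511 and 57501 bp). A DMSO peak lay within 1 kb of 70 sites (4.61%), within 10 kb of 480 (31.6%) and within 100 kb of 1342 (88.3%). For the 1147 comparison peaks, each of which by definition overlaps another control peak, the shares were 9.15%, 29.6% and 86.1%. The nearest DMSO peak was itself still called with WX-02-23 for 774 of the 1520 sites (50.9%), and 47.2% of all DMSO peaks were. Among sites within 10 kb of a DMSO peak this share was 58.1%, and among comparison peaks within 10 kb it was 56.2%.

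The size of the set depends on the overlap required: with 50% reciprocal overlap in place of 1 bp it held 2031 sites, since peaks that a control peak covers only in part then join it. The 3 smallest gaps between a site and a control peak were 46, 47 and 47 bp, at chr1:148293773-148294400, chr11:16246912-16247323 and chr15:49646334-49646682, with scores of 106, 101 and 110. Just outside the rule, chr15:82943760-82944269 overlapped a siControl peak by 3 bp, chr12:60020062-60020618 a DMSO peak by 4 bp and chr6:27115243-27115848 a PladB peak by 5 bp, with scores of 161, 91.5 and 92.1. In all, 64 sites (4.21%) lay within 500 bp of a control peak.

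The sites had neighbours about as often as commonly called peaks. Another WX-02-23 peak lay within 50 kb of 55.1% of the sites, and of 55.1% of the WX-02-23 peaks called in all 4 control lists. Counted among themselves, 1391 sites (91.5%) had no other site of the set within 50 kb, 53 runs held a pair, 4 runs held 3, and single runs held 5 and 6. The run of 6 was at chrX:61681998-61712935 with scores from 100.0 to 129, and the run of 5 at chr8:86741216-86792543 with scores from 92.1 to 111. All 11 sites of these runs were also siFOXA1 peaks and none was called in an engineered list. The next run, 3 sites at chr9:80580617-80601321, held no siFOXA1 peak, and 1 of its sites was called in WT cells with WX-02-23.

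By chromosome, the share of WX-02-23 peaks that belonged to the set ran from 6.91% on chromosome 17 (27 of 391) to 13.7% on chromosome 21 (20 of 146). These shares come from the lists that chose the sites and are a description. The WT list with WX-02-23, which the rule did not use, held 33.5% of all 1520 sites. The extremes among the 24 chromosomes were 12 of the 20 sites on chromosome 21, none of 14 on chromosome 22 and none of 12 on chromosome Y. Chromosomes 22 and Y each had 2 sites also called with siFOXA1, and chromosome 22 had 5 sites of 250 bp or less. Such sites were rarely called in this list anywhere. The same share of all WX-02-23 peaks by chromosome was not computed.

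The uninduced lines lacked these sites almost entirely. Of the 1520, 4 (0.263%, 0.102 to 0.675%) were called in WT cells without doxycycline and 25 (1.64%, 1.12 to 2.42%) in C258A cells without it, whereas 35.8% and 47.2% of all parental WX-02-23 peaks were. Among the 1147 comparison peaks the shares were 2.09% and 3.49%. Absence from the control lists of parental cells thus went with absence from uninduced cells of the engineered lines, which the rule had not used. These 2 lists were short, with 8575 and 12752 peaks.

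After doxycycline, and without any compound, the WT list held 379 sites (24.9%, 22.8 to 27.2%) and the C258A list 121 (7.96%, 6.70 to 9.43%), beside 46.4% and 24.1% of all WX-02-23 peaks. Of the 121, 119 were also among the 379. These sites were thus called in cells that had received no stereoprobe. With doxycycline and WX-02-23 the WT list held 509 sites (33.5%, 31.2 to 35.9%) and the C258A list 287 (18.9%, 17.0 to 20.9%), beside 43.4% and 37.4% of all WX-02-23 peaks. Each of these shares was below that of the whole list, whose other peaks have higher scores. They also depend on list length: with every engineered list reduced to its 8575 highest-scoring peaks, the WT list with WX-02-23 held 15.3% of the sites and the C258A list 7.11%, and with DMSO they held 7.96% and 5.72%.

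**Figure D2:**
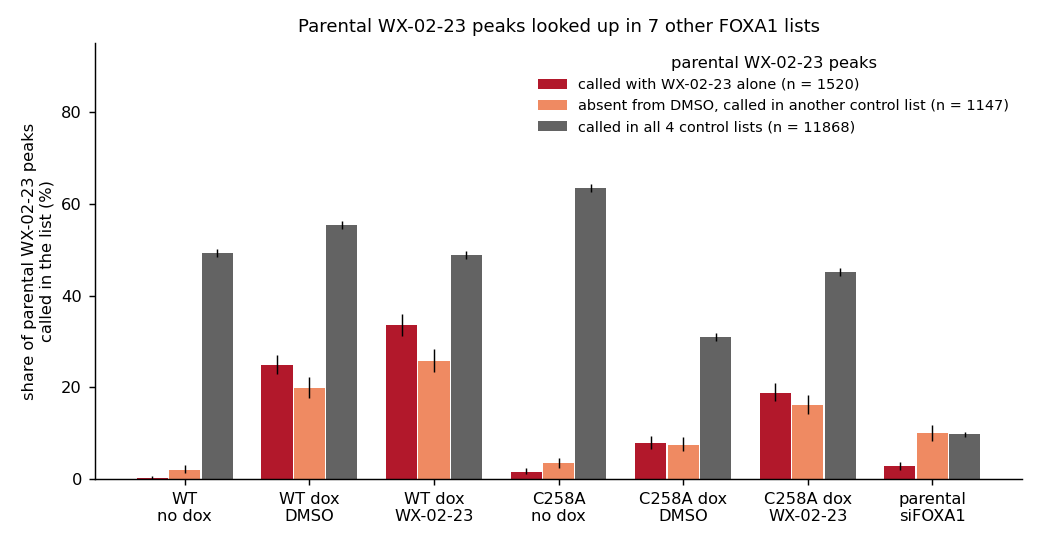
Share (%) of parental WX-02-23 peaks called in each of 7 lists outside the rule, with 95% Wilson intervals, for sites called with WX-02-23 alone, peaks absent from DMSO but in another control list, and peaks in all 4 control lists. The sites called with WX-02-23 alone are near 0 without doxycycline (0.263% and 1.64%) and highest in WT cells with doxycycline and WX-02-23 (33.5%).

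Site by site, in the lists as deposited, more sites were called only with WX-02-23 than only with DMSO in both lines. In WT cells 333 sites were called with DMSO and with WX-02-23, 176 only with WX-02-23 and 46 only with DMSO. In C258A cells the numbers were 119, 168 and 2. The 1147 comparison peaks went the same way as the sites in both lines. In WT cells 105 of them were called only with WX-02-23 and 38 only with DMSO, and in C258A cells 104 and 4. The peaks called in all 4 control lists did otherwise in WT cells, where 562 were called only with WX-02-23 and 1349 only with DMSO. In C258A cells they did alike, with 1862 and 180. Of the 168 sites that C258A cells gained with WX-02-23, 119 (70.8%, 63.6 to 77.2%) were already called in WT cells with DMSO. Over all WX-02-23 peaks this share was higher, at 78.9%. Of the 333 sites called in both induced WT lists, C258A cells with WX-02-23 held 67.3% (62.1 to 72.1%), beside 83.0% over all WX-02-23 peaks. Of the 176 called in the WT line only with WX-02-23, they held 37 (21.0%, 15.7 to 27.6%), beside 28.0%. List lengths bear on these counts, since the WX-02-23 list was shorter than the DMSO list in WT cells (25849 and 31735 peaks) and longer in C258A cells (20609 and 13299). With all engineered lists at 8575 peaks, the C258A shares of 5.72% (DMSO, 4.66 to 7.01%) and 7.11% (WX-02-23, 5.92 to 8.51%) had overlapping intervals. In WT cells the intervals at that length were apart, at 6.70 to 9.43% and 13.6 to 17.2%. Both shares of a line are over the same sites, and counts site by site were not made at that length. Overlap of these intervals therefore does not measure the difference between DMSO and WX-02-23 in either line.

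Sites called in another parental list alone were found far less often in the induced lists. In WT cells with WX-02-23 the share was 7.44% (5.01 to 10.9%) for WX-02-43 alone, 8.50% for DMSO alone, 6.72% for PladB alone and 6.84% for siControl alone, against 33.5% for WX-02-23 alone. These 4 sets were also called more often in WT cells with DMSO (9.06, 12.5, 10.6 and 9.51%) than with WX-02-23. That is the reverse of the order for WX-02-23 alone. By rule the 4 sets lacked a parental WX-02-23 peak. The 1147 comparison peaks, which had such a peak, kept the order of WX-02-23 alone (25.8% with WX-02-23, 20.0% with DMSO). Commonly called peaks did not (48.7% and 55.4%). In C258A cells with WX-02-23 the shares of the 4 sets were between 4.79 and 6.52%, against 18.9%. Because sites of the other sets ranked lower, the comparison was repeated within the lowest 20% of each list. In that stratum, the WT list with WX-02-23 held 20.7% of the 728 WX-02-23 sites and 7.08% of 240 WX-02-43 sites, a difference of 13.7 percentage points (8.81 to 17.7). Against the DMSO, PladB and siControl sets the difference was between 12.3 and 14.2 points, and each interval lay above 0. In C258A cells it was 7.35 points (3.00 to 10.9) against WX-02-43. The gap was also present without compound. In that stratum the WT list with DMSO held 18.8% of the WX-02-23 sites and 7.92% of the WX-02-43 sites. That difference was 10.9 points with a lower limit of 5.99. Against the DMSO, PladB and siControl sets it was 6.67 to 9.64 points, with each interval above 0. The 1147 comparison peaks in the lowest 20% of the WX-02-23 list did not differ beyond counting error. There the difference was 3.27 points (-1.54 to 7.83) in WT cells with WX-02-23. It was 2.24 points (-1.79 to 5.98) in C258A cells with WX-02-23 and 3.59 points (-1.01 to 7.91) in WT cells with DMSO. In each higher bin of 20% the WT difference with WX-02-23 was 10.5 to 38.5 points, with intervals above 0.

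**Figure D3:**
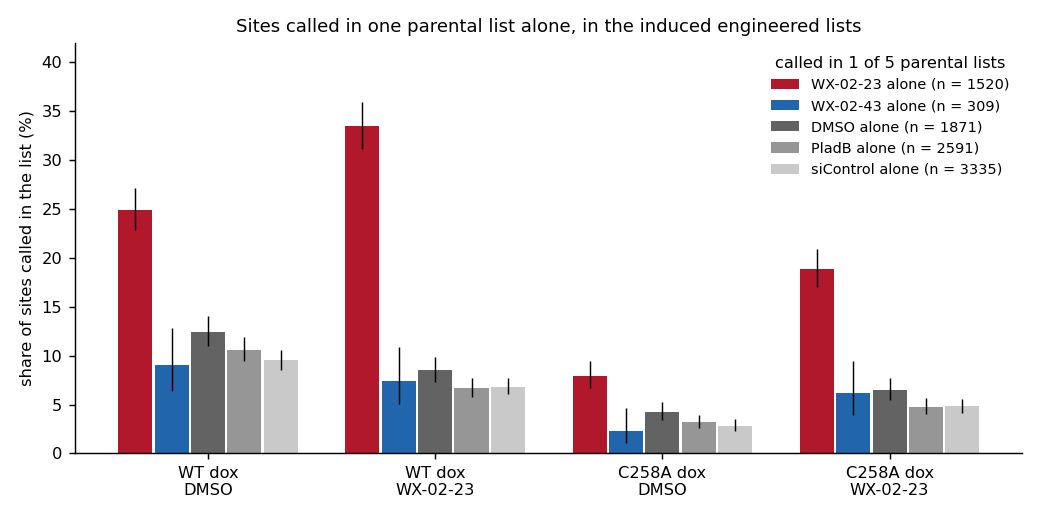
Share (%) of sites called in 1 of 5 parental lists alone that were called in the 4 induced lists of the engineered lines, with 95% Wilson intervals. WX-02-23 alone stands above the other 4 sets in each list. Of the 5 sets, only it has a WT share with WX-02-23 (33.5%) above that with DMSO (24.9%). The other 4 sets lacked a parental WX-02-23 peak by rule.

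The share called in WT cells with WX-02-23 rose with the score in the parental list. From the lowest to the highest 20% of the parental list by score it was 20.9% of 729 sites (1 more than above, with a score at the bin's limit), 39.5% of 448, 47.0% of 236, 62.1% of 95 and 10 of 12. In C258A cells with WX-02-23 it was 13.2%, 20.5%, 24.2%, 36.8% and 7 of 12. Over the same bins, the share of commonly called peaks rose from 25.8% to 68.3% (WT) and from 23.3% to 66.1% (C258A). In each of the lowest 4 bins the C258A share of the sites called with WX-02-23 alone was below that of the commonly called peaks, with differences of -12.8 to -8.75 points and intervals below 0. The WT share was below it in the lowest bin (difference -4.97 points, interval -8.66 to -1.13) and above it in the next (7.20 points, 2.26 to 12.3). In the upper 3 bins the WT intervals included 0. Distance to a DMSO peak gave a flatter picture: the WT list with WX-02-23 held 25.7% (16.9 to 37.0%) of the 70 sites up to 1 kb away, 33.7% of those at 1 to 10 kb, 36.7% at 10 to 50 kb and 30.2% (26.1 to 34.6%) of the 444 beyond 50 kb.

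The lines also differed at the 1139 sites that neither induced DMSO list held. WT cells with WX-02-23 had a peak at 175 of them (15.4%, 13.4 to 17.6%) and C258A cells at 49 (4.30%, 3.27 to 5.64%). Of all WX-02-23 peaks that neither DMSO list held, 11.8% and 5.74% were called. For the 1147 comparison peaks these shares were 11.4% (9.51 to 13.6%) and 4.39%. For WX-02-23 peaks in DMSO but not in all 4 control lists they were 14.0% (12.5 to 15.6%) and 5.59%. At 36 of the 1139 sites both lines had a peak, at 139 the WT line alone and at 13 the C258A line alone, so the WT line held 91.4% (85.9 to 94.9%) of the sites called in 1 line. The same share was 83.3% (74.6 to 89.5%) for the 1147 comparison peaks and 70.2% (66.1 to 74.0%) for commonly called peaks, so the interval of the sites overlapped the former and not the latter.

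The WT list with WX-02-23 was longer than the C258A list, so both were also cut to 20609 peaks. Commonly called peaks were then evenly divided, with 203 in the WT line alone and 203 in the C258A line alone. The sites called with WX-02-23 alone were not: 98 were called in the WT line alone and 16 in the C258A line alone, a WT share of 86.0% (78.4 to 91.2%). At 20609 peaks the comparison peaks, absent from DMSO but in another control list, also leaned to the WT line. Their WT share was 73.6% (62.4 to 82.4%), and its interval overlapped that of the sites. WX-02-23 peaks in DMSO but not in all 4 control lists had 64.6% (57.5 to 71.0%), below the interval of the sites. With all 4 induced lists at 13299 peaks the WT share was 93.1% (87.69 to 96.18%) for the sites called with WX-02-23 alone. It was 80.3% (69.96 to 87.66%) for comparison peaks and 63.9% for commonly called peaks. Each line had 1 library per condition, so a difference between the proteins and one between these libraries cannot be told apart.

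**Figure D4:**
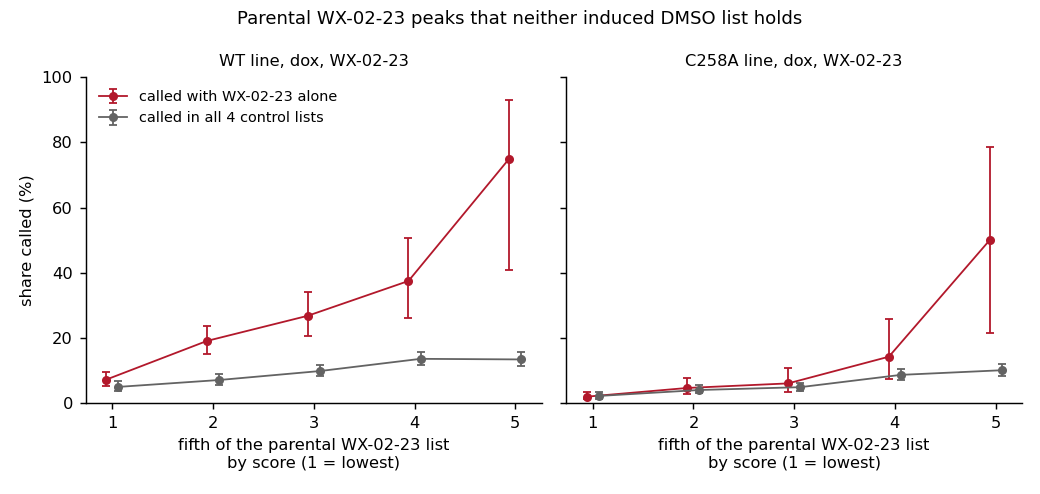
Share (%) of parental WX-02-23 peaks in neither induced DMSO list that were called with doxycycline and WX-02-23 in WT (left) and C258A cells (right), by 20% bins of the parental score, with 95% Wilson intervals. In WT cells the sites called with WX-02-23 alone lie above commonly called peaks from the next-to-lowest bin on (19.1% against 7.14%), while in C258A cells the intervals overlap in the lowest 4 bins.

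Split by score, the gap opened from the bin above the lowest. In WT cells 7.26% of the sites in neither DMSO list were called in the lowest bin, and then 19.1%, 26.8%, 37.5% (21 of 56) and 6 of 8. Commonly called peaks gave 5.03%, 7.14%, 9.88%, 13.6% and 13.4%. In C258A cells the sites gave 2.03%, 4.70%, 6.10%, 14.3% (8 of 56) and 4 of 8, and commonly called peaks 2.25%, 4.08%, 4.94%, 8.72% and 10.1%. The highest bin holds 8 sites, so its shares have wide intervals.

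Over the 6 engineered lists, 945 sites (62.2%) were called in none, 190 in 1, 152 in 2, 114 in 3, 108 in 4, 9 in 5 and 2 in 6. The most frequent patterns were WT with WX-02-23 alone (138 sites), both induced WT lists (107), both induced WT lists with C258A WX-02-23 (105), and all 4 induced lists (104). A further 35 sites were called in both lines with WX-02-23 and nowhere else, and 33 in WT with DMSO alone. These counts were not made for all WX-02-23 peaks, so they do not show whether any pattern is unusual for the sites. The median parental score was 112 for sites called in none, 143 for those in WT WX-02-23 alone, and 177 for the 35 called with WX-02-23 in both lines. Where a site was called in WT cells with WX-02-23, its peak there lay in the upper 50% of that list for 316 of 512 peaks. Parental and WT scores were only weakly related over the 509 sites (Spearman's rho 0.11, across sites of 2 libraries). Neither value was computed for other WX-02-23 peaks.

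Individual sites show these patterns. The strongest of the 1520, at chr12:80622948-80623899, had a score of 917 (rank 1171 of 17217) and lay 11695 bp from a DMSO peak. It was called in WT cells with WX-02-23 (score 382, rank 4526) and in C258A cells with WX-02-23 (154, rank 12063), and in none of the other 4 engineered lists or with siFOXA1. The site at chr9:100937670-100938670 (score 731) had the same calls, with scores of 366 in WT and 154 in C258A cells, and lay 2080 bp from a DMSO peak. Those at chr3:179623514-179624435 (score 551), chr7:157644348-157644958 (470) and chr1:203257453-203258194 (397) completed the 5 strongest of this pattern. Their C258A peaks ranked from 12063 to 17739 of 20609.

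The 5 strongest sites whose single engineered call was the WT list with WX-02-23 were at chr8:84625660-84626607 (parental score 634, WT score 215), chr12:45611039-45612164 (529 and 205), chr7:26452736-26453654 (410 and 106), chr20:13719923-13720621 (375 and 133) and chr21:19514852-19515531 (342 and 593). The last ranked 4805 in the parental list and 2184 of 25849 in the WT list. The nearest DMSO peak lay 8584 bp (chr8) to 50667 bp (chr12) away.

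Among the 10 highest scores, other patterns occurred as well. At chr15:95184157-95185012 (score 608), all 4 induced lists had a peak, with scores of 155 and 344 in WT cells with DMSO and WX-02-23, and of 92.2 and 210 in C258A cells. The site at chr3:162302072-162303128 (587) was called in both induced WT lists and in C258A cells with WX-02-23, and chr8:38140075-38141069 (520) in both induced WT lists only. Neither chr1:121483003-121485491 (797) nor chr5:80746303-80747394 (742) was called in any engineered list or with siFOXA1. Only 2 sites were called in all 6 engineered lists, at chr8:43092788-43093581 and chr8:43094582-43095556. Their parental scores were low, at 92.4 and 98.3, while both fell in a peak that ranked 3 of 31735 in the WT DMSO list.

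Calls with siFOXA1 concerned 43 sites (2.83%, 2.11 to 3.79%), beside 7.8% of all WX-02-23 peaks. At matched score the order against commonly called peaks turned for weak peaks. In the lowest 20% of the list 3.98% of the sites were siFOXA1 peaks and 0.597% of commonly called peaks, a difference of 3.38 points (2.05 to 5.08). In the next 20% it was 1.78 points (0.596 to 3.69). In the 2 highest bins the sites were below commonly called peaks, with differences of -5.94 points (-7.25 to -1.19) and -26.4 points (-27.9 to -2.08), the last from 0 of 12 sites. The 1147 comparison peaks were siFOXA1 peaks more often (10.0%), and in each bin the sites were below them. In the lowest bin that difference was -3.62 points (-6.79 to -0.884). Of the sites called with DMSO or PladB alone, 0.107% and 0.154% were siFOXA1 peaks, of those with siControl alone 1.20%, and of those with WX-02-43 alone 5.50% (3.46 to 8.63%). The 43 were not the sites called in the engineered lines: 42 of the 43 were called in no engineered list, and none in an induced one. They lay on 16 chromosomes, with 8 each on chromosomes 8 and X and 5 on chromosome 1, and their median score was 110. The strongest were chr8:46839584-46845794 (score 344, and tied for rank 1 of 3018 in the siFOXA1 list), chr13:111906955-111907568 (184) and chr10:99438596-99438803 (170). Sites farthest from any DMSO peak were of this kind in part: chr7:61078883-61079923 lay 1239688 bp away, chrX:58564116-58566124 907549 bp and chr8:46839584-46845794 863401 bp, and the latter pair were siFOXA1 peaks.

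Width separated 2 small groups of sites from the rest, at limits chosen after the widths were seen. Of 13 sites wider than 1200 bp, 10 were siFOXA1 peaks and none was called in an induced WT list. The widest were chrY:58819339-58830727 (11389 bp) and chr8:46839584-46845794 (6211 bp). The strongest was chr1:121483003-121485491 (2489 bp), which by the known layout of hg19 lies near the centromere gap of chromosome 1. No site, those of the runs and those called with siFOXA1 included, was compared here with gaps or repeats of the assembly. At the other end, 63 sites were 250 bp wide or less. They had high scores for their width, with a median of 187 and a maximum of 358, and 25 of them stood in the upper 50% of the list. Only 2 of the 63 (3.17%, 0.875 to 10.9%) were called in any engineered list, and 1 with siFOXA1. The strongest of them were chr11:33762028-33762189 (358), chr9:139155020-139155176 (326) and chr20:42867177-42867335 (318), and none of these 3 was called in any of the 7 other lists. Such narrow peaks numbered 122 in the WX-02-23 list, of which the 63 were 51.6% (42.9 to 60.3%), 96 in the WX-02-43 list and 13 to 18 in the DMSO, PladB and siControl lists. They were not limited to stereoprobe lists: the short lists of siFOXA1 and of WT cells without doxycycline held 150 and 131. The other engineered lists held 1 to 26. Calls of the other narrow and wide peaks of the WX-02-23 list were not counted. Whether the call shares above are particular to the narrow and wide sites of this set was therefore not tested.

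Between these limits, the share called in WT cells with WX-02-23 was 20.0% for sites of over 250 to 400 bp, 33.3% up to 600 bp and 55.4% up to 1200 bp. The same shares by width were not computed for other WX-02-23 peaks. Leaving out the narrow, the wide and the siFOXA1 sites left 1412 sites, of which the WT list with WX-02-23 held 508 (interval 33.5 to 38.5%). Over all WX-02-23 peaks the share was 43.4%. Of the 174 among them in the upper 50% of the list by score, the WT list with WX-02-23 held 112 (64.4%, 57.0 to 71.1%). Commonly called peaks in the upper 3 bins of 20% by score had shares of 41.6, 52.9 and 68.3%.

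**Figure D5:**
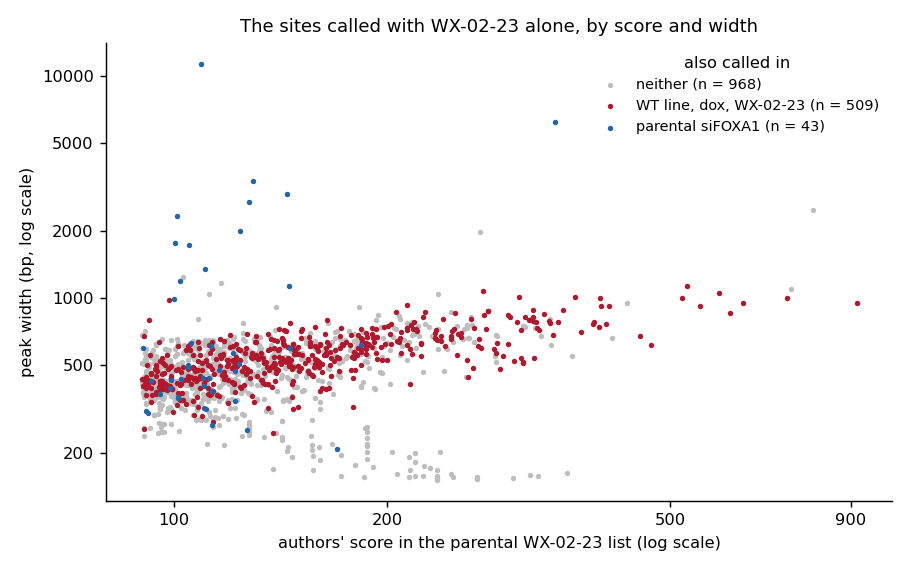
Each of the 1520 sites by the authors' score in the parental WX-02-23 list and its width (bp), both on log axes, coloured by calls in WT cells with doxycycline and WX-02-23 (509) and with siFOXA1 (43). The called WT sites follow the main band in which width rises with score, the siFOXA1 sites include most of those above 1200 bp, and the narrow branch of 250 bp or less holds 1 WT site.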

How the data were processed

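Each deposited file is the peak list of 1 FOXA1 library, with chromosome, start, end, a peak name beginning with MACS and a score that the authors made and did not define (lowest 90, highest 3233). Bowtie2, bcl2fastq and the build hg19 are named in the submitters' processing notes. The caller's version, thresholds and control library are not given in the sources used here. Starts were read as counted from 0. The coordinates deposited in the lists are in bp. The 3 input libraries were not analysed here.

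Peaks overlapping by 1 bp or more were taken as shared (numpy 2.4.6, checked on made-up lists and against bedtools 2.31.1). Distances are those of bedtools closest. Shares carry 95% Wilson intervals and differences Newcombe intervals (scipy 1.17.1), both for counting error alone, with each peak taken as an independent draw. Groups came from the labels.

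The sites and comparisons were chosen with earlier results of these data known. Regions named by position followed a written rule: the 10 highest scores, the 5 strongest of each of 2 call patterns, the 3 strongest with siFOXA1, the 3 farthest from DMSO peaks, the 3 largest runs, the 3 nearest to each side of the rule's limit, and up to 3 called in all 6 engineered lists. Narrow and wide sites, and the widest and strongest of each, were picked after their values were seen. Motif and nearest-gene analyses were not run.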

Additional observations from a re-analysis of the deposited data

How the results depend on the processing

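Of 102 values under other settings (15 results), 73 stayed within the error of the main value (for the number of sites, within 1.5 times) and 29 moved. With 50% reciprocal overlap in place of 1 bp there were 2031 sites, the median distance to a DMSO peak became 13624 bp, the share with a neighbour within 50 kb 58.9%, and the calls 5.86% (WT, no doxycycline), 22.2% (WT, DMSO), 28.9% (WT, WX-02-23), 7.83% (C258A, no doxycycline) and 1.62% (siFOXA1). Within the top 50% of the list by score, 202 sites were left, with a median score of 251, width of 676 bp and distance of 25756 bp. Their calls in WT cells were 0% (no doxycycline), 32.2% (DMSO) and 55.4% (WX-02-23), in C258A cells 2.48%, 11.4% and 31.2%, and 0.495% with siFOXA1. Control lists cut to the length of the WX-02-23 list gave 3511 sites. Engineered lists cut to 8575 peaks gave 7.96% (DMSO) and 15.3% (WX-02-23) in WT cells, and 0.789% (no doxycycline), 5.72% (DMSO) and 7.11% (WX-02-23) in C258A cells. A neighbour was within 10 kb of 23.8% and within 100 kb of 74.7%. At sites in neither induced DMSO list, cutting the 4 induced lists to 13299 peaks gave 12.2% (WT) and 2.87% (C258A), and cutting both WX-02-23 lists to 20609 gave 11.5% (WT). The cause of these shifts beyond the changed list or overlap was not tested.

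The settings at 13299 and 20609 peaks, and those on width and without siFOXA1 sites, were chosen after seeing the data. Autosomes alone, a gap of up to 500 bp counted as shared, sites over 10 kb from a DMSO peak, sites over 250 bp, sites up to 1200 bp, sites not called with siFOXA1, and a rule without WX-02-43 moved none of the values recomputed under them beyond that error. The largest relative shift among these was in WT cells without doxycycline, 0.133% (2 of 1507 sites) for sites up to 1200 bp.

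No paired analysis was possible because each group has 1 library, and for the same reason no library was left out. The planned motif result was not run. The depth behind the calls is unknown, so a site that was not called in a list is not shown to lack signal there.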
